A study of Homo sapiens with 12 samples.

Results

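Vehicle-treated HK-2 cells were compared between 24 h and 48 h, in separate samples. Of the 12 arrays of the study, the 6 that held control samples were used: 3 after 24 h and 3 after 48 h with vehicle, paired by the replicate number in their labels. HK-2 is a line of human kidney proximal tubule epithelium, immortalized with papillomavirus oncogenes. All groups grew in DMEM and Ham's F12 with EGF, hydrocortisone, insulin, transferrin and selenite, and vehicle was added a day after seeding, when the wells were nearly full. The other 6 arrays held cells given a high dose of a compound named Nnm for 24 h or 48 h, and they enter only a closing comparison. The vehicle itself, and whether the medium was renewed, are not given in the sources used here. Time with vehicle, cell density and age of the medium therefore cannot be told apart. The labels call the replicates biological without saying how they were set apart, so p-values measure the spread between these samples.

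As background, epithelial cells that fill their dish leave the division cycle, and genes for DNA synthesis and mitosis are transcribed chiefly in dividing cells. Genes of DNA synthesis are controlled largely by E2F factors, and those of mitosis by complexes that read the CHR promoter element. TXNIP, a brake on glucose uptake, is switched on by MondoA and its relative ChREBP when glucose is plentiful, through paired half-sites in its promoter. Proximal tubule cells that settle into a layer also lay down basement membrane and display transporters and peptidases at their apical face.

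The promoters below are shown because they belong to the gene that fell furthest and to mitotic genes that fell. Each gives the 150 bases before the start of the RefSeq gene, 5′ to 3′ on the gene's strand, in build GRCh38.p14. For TXNIP, at chr1:145996580-145996729 on the minus strand, capitals mark every match to the half-site CACGNG on either strand. For CDC20 (chr1:43358831-43358980, plus strand), PLK1 (chr16:23678739-23678888, plus strand) and KIF23 (chr15:69414199-69414348, plus strand), capitals mark the CHR letters TTTGAA.
TXNIP: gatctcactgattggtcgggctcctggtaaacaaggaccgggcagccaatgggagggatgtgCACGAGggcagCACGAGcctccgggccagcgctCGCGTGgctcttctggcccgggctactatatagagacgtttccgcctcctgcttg
CDC20: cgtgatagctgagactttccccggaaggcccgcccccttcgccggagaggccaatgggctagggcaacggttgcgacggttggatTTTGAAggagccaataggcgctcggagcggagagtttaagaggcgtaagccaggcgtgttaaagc
PLK1: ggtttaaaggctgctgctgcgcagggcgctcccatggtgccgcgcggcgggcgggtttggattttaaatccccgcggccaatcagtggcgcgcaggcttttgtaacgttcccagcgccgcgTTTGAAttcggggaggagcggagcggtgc
KIF23: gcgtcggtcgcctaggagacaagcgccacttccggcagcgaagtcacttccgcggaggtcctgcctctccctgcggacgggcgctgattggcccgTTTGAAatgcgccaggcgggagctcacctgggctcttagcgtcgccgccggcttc

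The first 2 half-sites printed for TXNIP lay 5 bases apart, from -88 to -72 counted from the start of the gene. Such a pair was found in 20 of 27305 promoters (0.0732%) of 300 bases, 250 before and 50 after the start, with each gene taken at the first start that RefSeq lists. The CHR letters stood at -65 in CDC20, at -29 in PLK1 and at -55 in KIF23. A match is a description of letters and not a measured binding site.

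The control arrays were alike in signal: each had 22042 to 22125 probe sets over log2 4, and their medians ran from 2.91 to 2.96 on the log2 scale. A probe set was tested when it exceeded log2 4 on at least 3 of the 6 control arrays. Limma with the replicate number as a block called 2282 of 22141 probe sets (10.3%) at a Benjamini-Hochberg adjusted p under 0.05, 1043 higher and 1239 lower at 48 h. The balance turned with the scaling: 1338 were higher and 1301 lower with each array centred on its median, and 1260 higher and 1231 lower after quantile normalization. Of 10728 genes, each read from its brightest probe set, 543 rose (5.06%) and 661 fell (6.16%). A difference of at least 0.5 log2 in 1 direction in all 3 pairs was seen upward in 236 genes (2.2%) and downward in 247 (2.3%). The arrays at 48 h all lay above those at 24 h for 1298 genes (12.1%) and all below for 1553 (14.5%). Counts given for each list below are to be read beside these shares, and a list with few called members may lie near them. These calls rest on the pairing and on having all 3 pairs. Without the block 1 probe set was called, with all 12 arrays and the block 27, and with any 1 pair left out 0 (lowest adjusted p from 0.105 to 0.137, against 5097 to 5609 probe sets at an unadjusted p under 0.05). Exact sign-flipping of 3 pairs cannot go below a two-sided p of 0.25, so the values of each pair are given below.

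The labelled cell type was checked against 12 defining proximal tubule markers. Of these, 10 had a probe set that named them alone, and 2, the transcription factor PAX8 and the cadherin CDH6, passed the filter. The endocytic receptors LRP2 and CUBN, the water channel AQP1, the peptidases ANPEP, MME and GGT1 and the transporters SLC34A1 and SLC5A2 stayed between 2.09 and 3.14 in the means of both times. Most apical proteins that define the segment thus gave a signal under the filter at both times. Of the leukocyte markers 0 of the 8 measured passed the filter, and of the endothelial markers 1 of 8 did, PECAM1, at 4.18 at 24 h and 4.10 at 48 h. Of the podocyte markers PODXL, SYNPO and PTPRO passed the filter, with PTPRO at 13.14 and 13.17, while NPHS1 and WT1 lay under 3 and none was called.

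**Figure D1:**
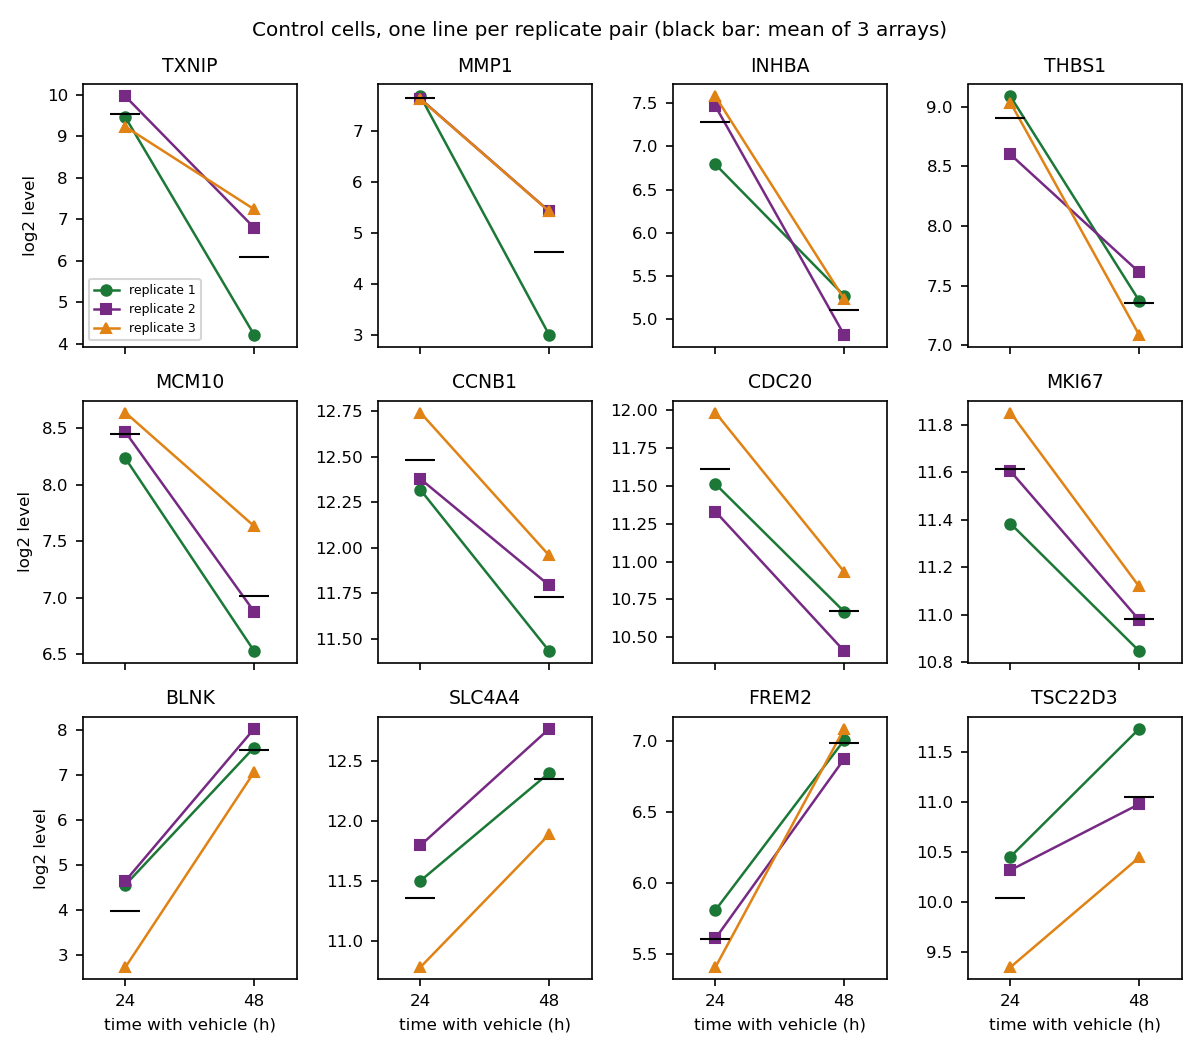
Log2 level (vertical axis) of 12 genes in control cells at 24 h and 48 h (horizontal axis), with 1 line per replicate pair and a black bar at the mean of 3 arrays. All 3 lines fall for TXNIP, MMP1, INHBA, THBS1, MCM10, CCNB1, CDC20 and MKI67, and all 3 climb for BLNK, SLC4A4, FREM2 and TSC22D3.

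Cell cycle. Genes of G2 and mitosis made up the list with the most falls. Of 45 tested, 38 fell and 0 rose, and the median difference was -0.58 log2 against -0.02 over all genes tested. In 42 the 3 arrays at 48 h lay below the 3 at 24 h, as in 14.5% of all genes tested. The median was -0.60, -0.52 and -0.57 in pairs 1, 2 and 3, so the size was nearly the same in each. A fall of at least 0.5 in all pairs was seen in 24 of the 45, against 2.3% of all genes tested. In a mixed culture, fewer dividing cells and less RNA per dividing cell cannot be told apart.

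CDC20, which activates the anaphase-promoting complex, measured 11.51, 11.33 and 11.98 at 24 h and 10.67, 10.41 and 10.93 at 48 h in replicates 1, 2 and 3. The groups did not overlap, and the fall was 0.94 log2, or 1.92-fold (SE 0.08, limma adjusted p = 0.0246). Each SE given here, also after ±, is limma's moderated value. It draws on the spread of all tested probe sets, so it can be narrower or wider than the 3 pair differences alone would give. CCNB1, the cyclin that drives entry into mitosis, went from 12.32, 12.38 and 12.74 to 11.43, 11.79 and 11.96. Its difference was -0.75 ± 0.09 (SE, n = 3 pairs), and both of its probe sets were called. MKI67, the proliferation antigen Ki-67, went from 11.38, 11.61 and 11.85 to 10.85, 10.98 and 11.12, a fall in each pair that was called in 4 of 4 probe sets. Cyclin A2 (CCNA2, -0.90), the kinetochore subunit SPC25 (-0.96), the midbody kinesin KIF23 (-0.84), the mitotic kinase PLK1 (-0.77) and the chromosome passenger kinase AURKB (-0.78) were among the other genes that fell. The 7 members not called were CDC25B, CDC25C, NUSAP1, PTTG1, TOP2A, NEK2 and CDK1. The mitotic kinase CDK1 lay just past the threshold at -0.35 ± 0.07 (limma adjusted p = 0.0513), with 2 of its 4 probe sets called.

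Promoter letters had no part in the calls, but the genes come from a list of mitotic genes, so the shares describe that list. RefSeq held a promoter for 31 of the 38 that fell, and 25 of these (80.6%) contained the CHR letters TTTGAA or TTCGAA on either strand. The share was 16.6% over all 27305 promoters and 11.1% over the 8889 tested genes with a promoter. Of the 7 tested members that were not called, 3 (42.9%) held them. Over all tested members with a promoter, called or not, the share was 28 of 38 (73.7%). CCAAT on either strand stood in 80.6% of the genes that fell, in 5 of the 7 not called (71.4%) and in 35.7% of all promoters. Matches of different motifs were counted separately even where they overlapped.

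Genes of DNA replication and S phase fell in smaller number and less evenly. Of 40 tested, 18 fell and 0 rose, with a median of -0.40 (-0.54, -0.41 and -0.28 in pairs 1, 2 and 3). In 31 the arrays at 48 h all lay below those at 24 h (14.5% of all genes tested). A fall of at least 0.5 in all pairs was seen in 5 (2.3% of all genes tested). MCM10, which helps the replicative helicase start, went from 8.23, 8.47 and 8.64 to 6.53, 6.88 and 7.64, a difference of -1.43 ± 0.16 (SE, n = 3 pairs, 3 of 3 probe sets called). The arrays of the later time all lay under the earlier ones. The helicase subunit CDC45 fell by 1.00, the origin licensing factor CDC6 by 0.97, the checkpoint adaptor CLSPN by 0.90 and cyclin E2 (CCNE2) by 0.51 on the log2 scale. The licensing factor CDT1 was the member with the highest difference, 0.28, and was not called. An E2F letter string (TTTCCCGC, TTTCGCGC, TTTGCCGC or TTTGGCGC, either strand) stood in 10 of the 17 genes that fell and have a promoter (58.8%) and in 10 of 19 that were not called (52.6%). The share was 3.33% over all promoters and 5.65% over tested genes with one. CHR letters stood in 2 of the 36 replication promoters (5.56%).

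**Figure D2:**
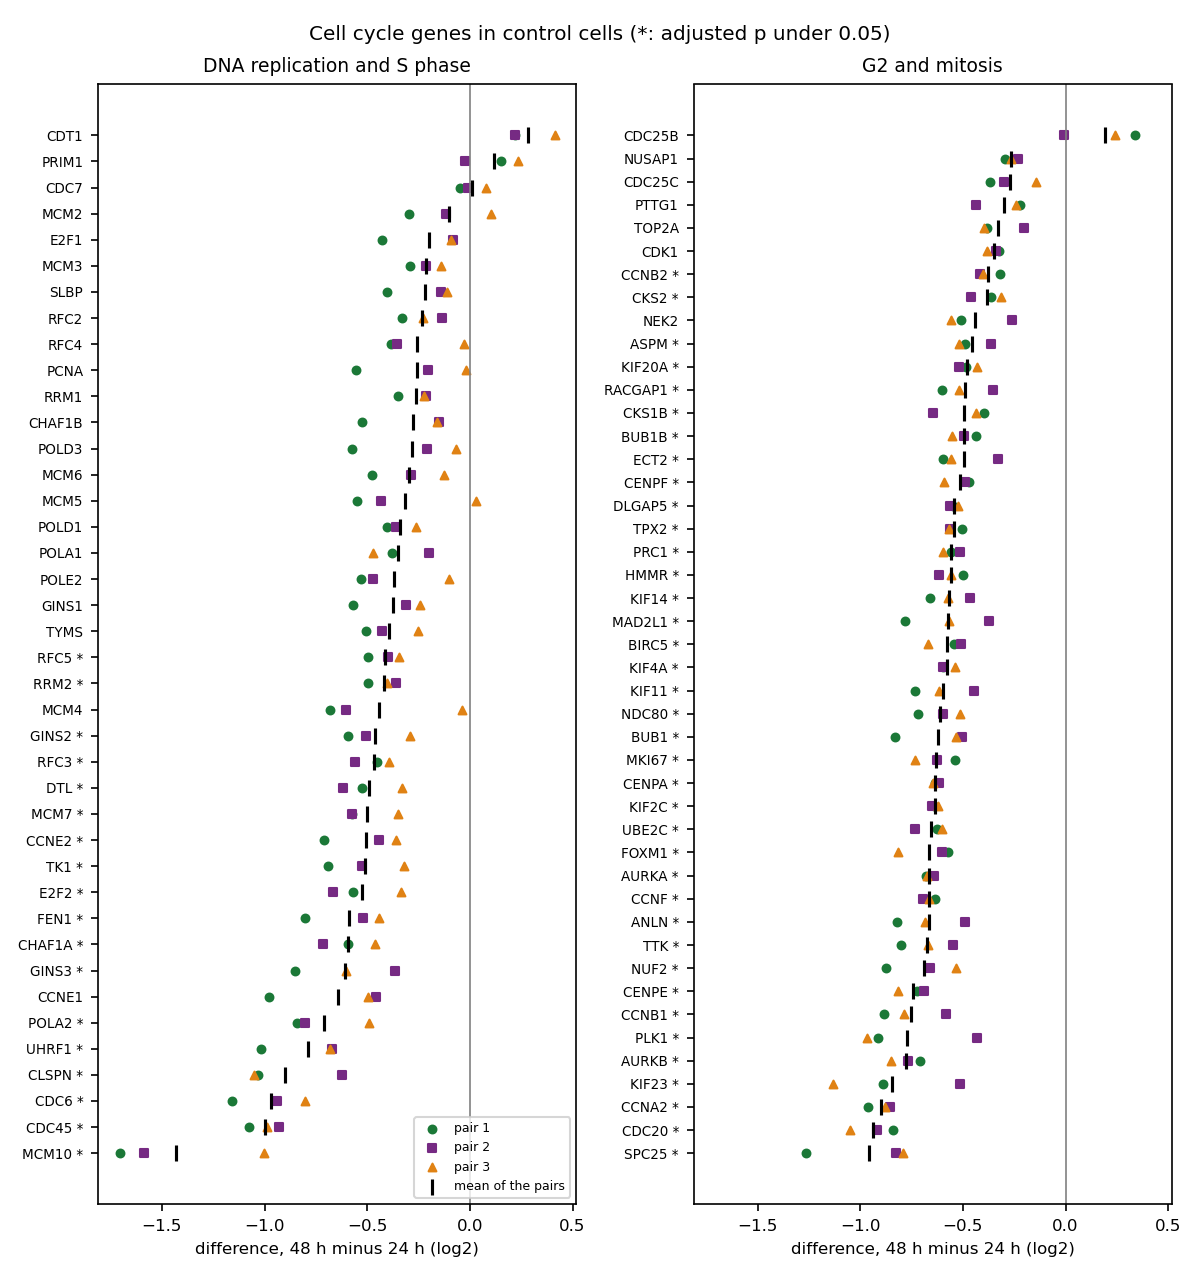
Difference between 48 h and 24 h on the log2 scale (horizontal axis) for each tested gene of DNA replication (left) and of G2 and mitosis (right), with 1 symbol per pair, a bar at their mean and an asterisk at an adjusted p under 0.05. The mitotic genes run from -0.96 (SPC25) to 0.19 (CDC25B) around a median of -0.58, and the replication genes from -1.43 (MCM10) to 0.28 (CDT1) around -0.40.

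Among G1 cyclins and brakes of the cycle 6 of 26 rose and 0 fell, and the median was -0.00. The antiproliferative BTG1 rose by 0.63, the inhibitor of cyclin-dependent kinases CDKN1C by 0.61 and the MAX partners MXI1 and MXD1, which oppose MYC, by 0.52 and 0.51. MYC itself rose by 0.40 (limma adjusted p = 0.0432), as did the p53-responsive cyclin CCNG1 by 0.45. CDKN1C was called in 1 of 4 probe sets, with differences from 0.20 to 0.61, and MXD1 in 1 of 2, the other at -0.04. The inhibitors CDKN1A (-0.21 ± 0.13, adjusted p = 0.309) and CDKN1B (0.29 ± 0.07, adjusted p = 0.0711) and cyclin D1 (CCND1, -0.68 ± 0.27, adjusted p = 0.160) did not pass limma's threshold. Of 20 tested genes of ribosome biogenesis 1 fell, BYSL, a factor of the small subunit, by 0.47. The median of that list was -0.21 and differed between pairs (-0.05, -0.18 and -0.42). Of 30 replication-dependent histone genes 5 passed the filter, of which H2BC12 rose by 0.70.

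TXNIP and nutrients. TXNIP fell further than any other tested gene. It measured 9.46, 9.96 and 9.23 at 24 h and 4.22, 6.80 and 7.24 at 48 h in replicates 1, 2 and 3. The fall was seen in all 3 pairs, but its size was not shared: -5.23, -3.16 and -1.99. The mean difference was -3.46 ± 0.63 (moderated SE, n = 3 pairs), or 11.01-fold, at a limma adjusted p of 0.0427. That SE does not give the spread of these 3 pairs alone. The 3 probe sets gave -3.11, -3.27 and -3.46, all called. The adjusted p was 0.176 without the block and 0.0730 with all 12 arrays and the block.

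The other genes of MondoA and glucose sensing did not move with TXNIP as a group. Of 16 tested, with TXNIP counted among them, 3 fell and 2 rose, and the median was -0.04. The zinc finger repressor KLF10 fell by 0.76 ± 0.07 and the glucose transporter SLC2A1 by 0.55 ± 0.07, both in all 3 pairs without overlap of the groups. The bifunctional enzymes PFKFB2 and PFKFB3, which set the level of the glycolytic activator fructose 2,6-bisphosphate, rose by 0.85 and 0.39. ARRDC4, the arrestin-domain relative of TXNIP, was not tested because it did not pass the filter or had no probe set naming it alone.

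Among genes of glycolysis and lactate 2 of 17 rose, the muscle-type phosphofructokinase PFKM (0.38) and the pyruvate dehydrogenase kinase PDK3 (0.49, 1 of 4 probe sets called). Of 17 targets of HIF, the oxygen-sensitive factor, 4 rose and 1 fell, with a median of 0.21. The carbonic anhydrase CA12 rose by 0.71 (4 of 5 probe sets called), while the collagen prolyl hydroxylase P4HA2 fell by 0.64 (1 of 2). Of 21 genes of oxidative phosphorylation none passed limma's threshold, and their differences lay between -0.27 and 0.25. Over all genes tested 5.06% rose and 6.16% fell, so lists with 1 or 2 called members may lie near that background.

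None of 33 genes of the ATF4 and amino acid response was called, although most measured higher at 48 h. The median was 0.25, with 0.55 in pair 1 against 0.17 and 0.09 in pairs 2 and 3. Differences above 0 were seen in 29 of 33, against 5023 of all 10728 genes tested. The member with the largest difference, DDIT3, a stress-induced transcription factor picked out after its values were seen, differed by 3.02 in pair 1 and by 0.75 and 0.84 in pairs 2 and 3 (mean 1.53, limma adjusted p = 0.112). The amino acid transporter SLC38A2 differed by 0.39 (adjusted p = 0.0553) and the cysteine-forming enzyme CTH by 1.04 (adjusted p = 0.0577) in the probe sets used. The other probe set of CTH was called, at 1.26 (limma adjusted p = 0.0352). INHBE, an inhibin subunit that belongs to no list here, rose by 2.19 ± 0.37, and pair 1 again gave the widest step: 6.32, 6.96 and 6.01 at 24 h against 9.59, 8.36 and 7.93 at 48 h.

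Of 17 genes of fatty acid oxidation and lipid storage 3 rose: the acyl-CoA synthetase ACSL1 (0.81, 2 of 2 probe sets), the nuclear receptor PPARA (0.69, 3 of 6 probe sets) and the short-chain dehydrogenase ACADS (0.70). Of 10 genes of fatty acid synthesis the acetyl-CoA synthetase ACSS2 rose by 0.60, and of 19 cholesterol genes none was called, with a median of 0.19. Among 28 genes of lysosome and autophagy 3 rose, GPNMB by 1.03, the amino acid sensing GTPase RRAGD by 0.65 and the sialidase NEU1 by 0.45. Of 9 iron genes the importer SLC11A2 (0.60, 1 of 4 probe sets called) and the ferrireductase CYBRD1 (0.46, 1 of 2, the other at -0.04) rose. Of 18 FOXO targets and genes repressed by insulin, FOXO3 (0.44, 2 of 3 probe sets) and BCL6 (0.61, 1 of 2) rose. With 5.06% of all genes tested called higher, lists with 1 to 3 called members may lie near that share.

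Of 14 clock genes 4 rose and 0 fell, with a median of 0.34 that was 0.38, 0.32 and 0.27 in the 3 pairs. DBP, an output factor of the clock, went from 5.60, 4.74 and 4.78 to 6.58, 5.82 and 5.98, a rise of 1.09 ± 0.08. The related HLF rose by 0.92 (3 of 3 probe sets), the repressor BHLHE41 by 0.73 (1 of 3) and the nuclear receptor NR1D2 by 0.49 (1 of 2). Of 11 glucocorticoid targets 2 rose and 0 fell, and the median was 0.03. TSC22D3, a leucine zipper protein induced by glucocorticoids, rose by 1.02 ± 0.14, from 10.45, 10.32 and 9.34 to 11.74, 10.98 and 10.44, so that the groups overlapped although each pair climbed. TFCP2L1, a transcription factor of kidney epithelium, rose by 1.65 in the probe set used and was called in 1 of its 3 probe sets, the lowest of which differed by 0.52.

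**Figure D3:**
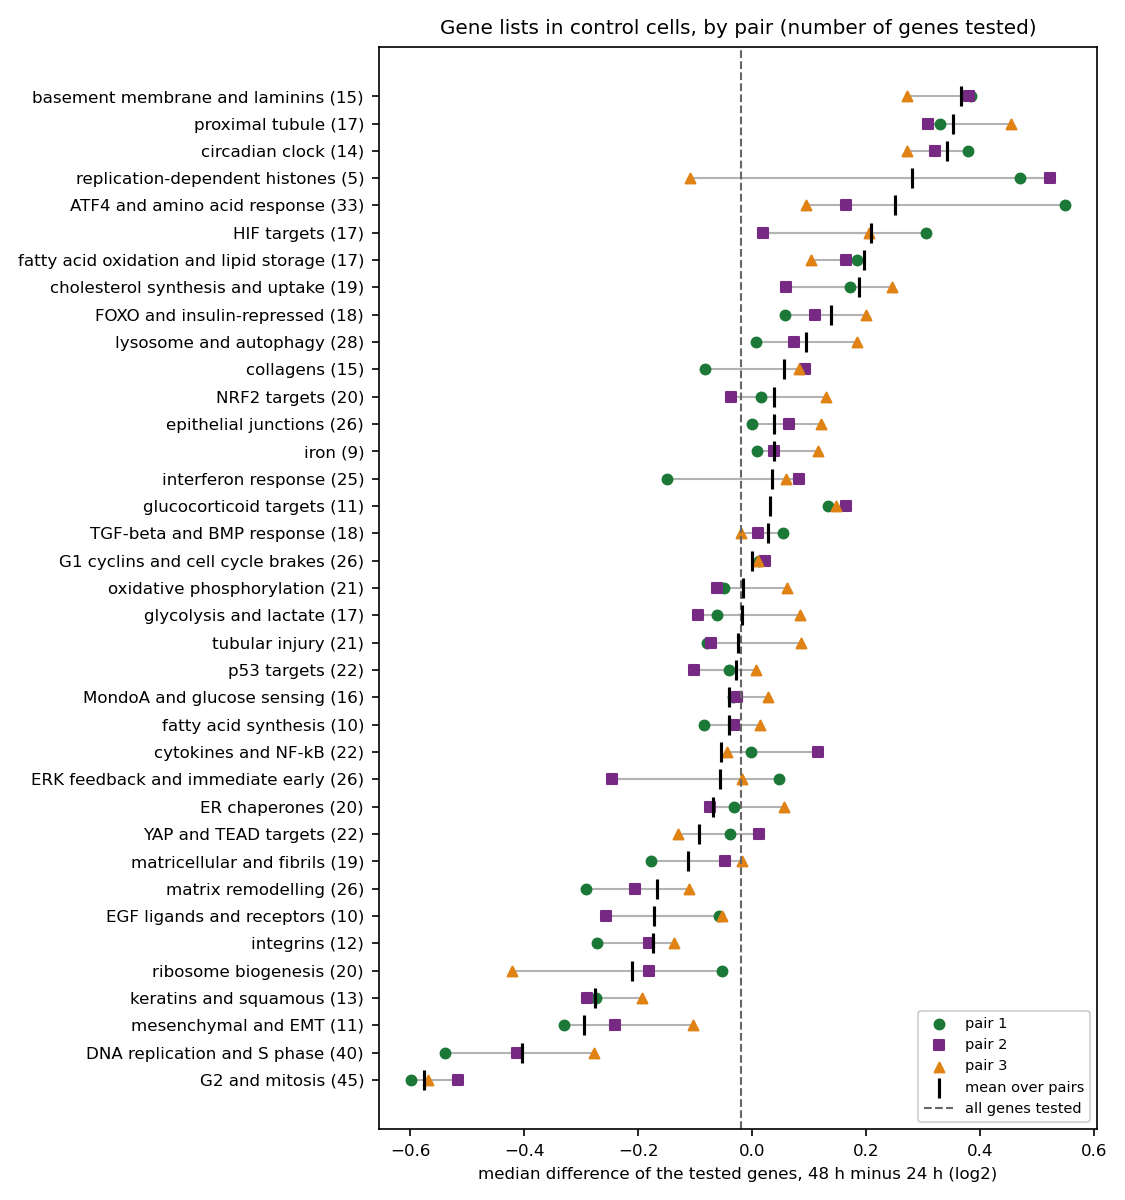
Median difference between 48 h and 24 h on the log2 scale (horizontal axis) over the tested genes of each list, whose number is in brackets, with 1 symbol per pair, a bar for the differences averaged over the pairs and a dashed line for all genes tested. The lists of mitosis and replication lie furthest to the left at -0.58 and -0.40, those of basement membrane, proximal tubule and circadian clock furthest to the right at 0.37, 0.35 and 0.34, and the list of the ATF4 response has a wide spread between pairs.

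Differentiation. Of 44 proximal tubule genes 17 passed the filter, and of these 7 rose and 0 fell, with a median of 0.35 (0.33, 0.31 and 0.45 in the pairs). The 27 others include most of the defining markers named above, so the rises concern the segment's genes that the line still expressed. None of the 7 that rose was among the 12 defining markers. In 3 of the 17 the arrays at 48 h all lay above those at 24 h, against 12.1% of all genes tested. The sodium bicarbonate cotransporter SLC4A4 went from 11.50, 11.80 and 10.78 to 12.40, 12.77 and 11.89, a rise of 0.99 ± 0.08 with the lowest array at 48 h still above the highest at 24 h (4 of 5 probe sets called). The cystine transporter subunit SLC3A1 rose by 0.95 ± 0.07, from 8.89, 8.55 and 7.98 to 9.85, 9.52 and 8.91. The angiotensin-cleaving peptidase ENPEP rose by 0.78, the apical scaffold PDZK1 by 0.68, the inositol oxygenase MIOX by 0.66, the kidney cadherin CDH16 by 0.64 and the dipeptidyl peptidase DPP4 by 0.38. CDH6 measured 12.77 at 24 h and 12.42 at 48 h in the mean and was not called, nor was PAX8, at 10.74 and 10.92. The log2 of the summed level of the 10 measured defining markers ran from 12.92 to 13.19 at 24 h and from 12.79 to 12.93 at 48 h. Of 10 measured distal nephron markers the sodium channel subunit SCNN1A (0.40, limma adjusted p = 0.101) and the water channel AQP3 (0.54, limma adjusted p = 0.258) passed the filter without being called. The log2 of the distal markers' summed level ran from 9.11 to 9.51 at 24 h and from 9.65 to 9.83 at 48 h, and their part in the tubule values was not tested.

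The largest rises lay mostly outside the lists. BLNK, an adaptor best known from B cells, measured 4.57, 4.65 and 2.74 at 24 h and 7.61, 8.03 and 7.07 at 48 h. Its mean at 48 h was 11.9-fold above the filter level of 4, and its mean at 24 h lay just under that level. Replicate 3 alone was under it at 24 h, so the size of the rise is uncertain. The paired rises were 3.05, 3.38 and 4.33 log2 (limma adjusted p = 0.0246). BLNK had the largest rise in the table, while the leukocyte markers stayed under the filter at both times. The transporter SLC6A13, which carries GABA and betaine, rose by 2.00 ± 0.12 (1 of 2 probe sets called), from 8.30, 8.85 and 7.58 to 10.49, 10.58 and 9.67. RAB17, a small GTPase of epithelial recycling, rose by 1.88 ± 0.09 and was even between pairs, from 7.18, 7.19 and 6.98 to 9.08, 9.19 and 8.73. The SLIT receptor ROBO2 (1.75), the phospholipase PLA1A (1.70), the choline transporter-like SLC44A5 (1.66, 4 of 4 probe sets) and the ubiquitin ligase PELI2 (1.51) completed the 10 largest rises with INHBE, TFCP2L1 and KRT20.

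Of 26 junction genes 2 rose, the tight junction proteins CLDN3 (0.65, 1 of 2 probe sets) and OCLN (0.48, 2 of 3), and 1 fell, the desmosomal DSP (-0.49). Over all genes tested 5.06% rose and 6.16% fell, so these counts lay near that background. E-cadherin (CDH1) differed by 0.23 ± 0.08 and was not called (limma adjusted p = 0.114). Of 13 keratins and squamous genes 3 fell and 1 rose, with a median of -0.28. KRT20, a keratin of intestinal and urothelial surface cells, rose by 1.68 ± 0.25, from 6.88, 8.10 and 6.83 to 8.22, 9.38 and 9.24. The simple-epithelium keratin KRT18 fell by 0.54, KRT80 by 0.41 and the calcium-binding S100A2 by 1.30. Of 11 mesenchymal genes 1 fell, the myosin light chain MYL9, by 0.90 ± 0.07. Vimentin (VIM) differed by -0.35 ± 0.07 (adjusted p = 0.0514 by limma). The actin-binding TAGLN, picked out after its values were seen, differed by -3.56, -1.001 and -1.92 in the 3 pairs and was not called (adjusted p = 0.0621 by limma).

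Of 21 genes of tubular injury 3 rose and 3 fell. The chaperone clusterin (CLU) rose by 0.86 ± 0.09 (3 of 3 probe sets), from 12.89, 12.25 and 12.38 to 13.62, 13.25 and 13.22, and the stem cell antigen PROM1 by 0.86. PROM1 averaged 4.27 at 24 h, with replicate 1 at 3.56, under the filter level of 4. SOX9, a transcription factor of repairing tubules, fell by 1.29 ± 0.18 (2 of 2 probe sets), from 8.34, 7.89 and 8.23 to 7.33, 6.83 and 6.42. The injury receptor HAVCR1, also called KIM-1, differed by -0.02 ± 0.08 (adjusted p = 0.914 by limma), with every array between 11.36 and 11.66. The list thus moved in both directions, and its median was -0.03.

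Matrix and adhesion. Called genes of the basement membrane were all higher and called genes of matrix remodelling all lower at 48 h. Of 15 tested genes of basement membrane and laminins 7 rose and 0 fell, with a median of 0.37 (0.38, 0.38 and 0.27 in the pairs). Of 26 matrix remodelling genes 7 fell and 0 rose, with a median of -0.17 (-0.29, -0.21 and -0.11). A rise of at least 0.5 in all pairs was seen in 3 of the former and a fall of that size in 5 of the latter. Over all genes tested the shares were 2.2% and 2.3%.

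FREM2, which with FRAS1 forms a complex under embryonic epithelia, went from 5.81, 5.61 and 5.41 to 7.01, 6.88 and 7.09, a rise of 1.38 ± 0.12 with no overlap. FRAS1 rose by 0.80 ± 0.08, from 10.14, 10.07 and 9.19 to 10.99, 10.76 and 10.07. The linker nidogen 2 (NID2) rose by 0.88, the laminin chains LAMA1 and LAMB1 by 0.59 and 0.47, the integrin ligand nephronectin (NPNT) by 0.42 and perlecan (HSPG2) by 0.39. Among 15 collagens the basement membrane chain COL4A4 (1.39, 2 of 2 probe sets) and COL14A1 (1.34, 4 of 4) rose. COL4A4 averaged 4.12 at 24 h in the probe set used and 3.86 in the other, near the filter level of 4, so its size is uncertain. COL4A1, a widespread chain of collagen IV, differed by 0.06 ± 0.09 and was not called (limma adjusted p = 0.655). COL1A1 fell by 0.62 in the probe set used and was called in 2 of 3, the third differing by 0.03. Fibroblast markers gave 3 of 10 above the filter, COL1A1, LUM and DCN, while PDGFRA, PDGFRB, COL1A2, COL3A1, THY1, FAP and POSTN lay between 2.13 and 3.11. The log2 of their summed level ranged from 12.4 to 12.9 at 24 h and from 12.3 to 12.4 at 48 h, and their part in the collagen values was not tested.

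The collagenase MMP1 measured 7.68, 7.63 and 7.63 at 24 h and 3.01, 5.43 and 5.43 at 48 h. It fell in every pair. The array of replicate 1 at 48 h lay under the filter level of 4, so the size of that pair's step is uncertain. The mean difference was -3.02 ± 0.54 (moderated SE, n = 3 pairs, limma adjusted p = 0.0425). The other members of the list that fell were the plasminogen activator PLAT (by 1.66), the urokinase receptor PLAUR (by 1.03, 2 of 3 probe sets), urokinase (PLAU, by 0.45), the protease inhibitor SERPINE2 (by 0.85), the hyaluronan receptor CD44 (by 0.61) and P4HA2, given above.

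Of 19 matricellular and fibril genes 3 fell and 0 rose. Thrombospondin 1 (THBS1) went from 9.09, 8.60 and 9.03 to 7.37, 7.61 and 7.09, a difference of -1.55 ± 0.20 called in 3 of 3 probe sets. TGFBI, a secreted adhesion protein induced by TGF-beta, fell by 1.12 ± 0.13, from 11.03, 10.16 and 10.43 to 9.57, 9.18 and 9.52, and LTBP2 by 0.66. Fibronectin (FN1) measured 14.98 at 24 h and 14.94 at 48 h in the mean and differed by -0.04 ± 0.07 (limma adjusted p = 0.721). The level of FN1 lay near the top of the scale, and 1 of its 7 probe sets, a dimmer one, was called with a fall of 0.90.

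**Figure D4:**
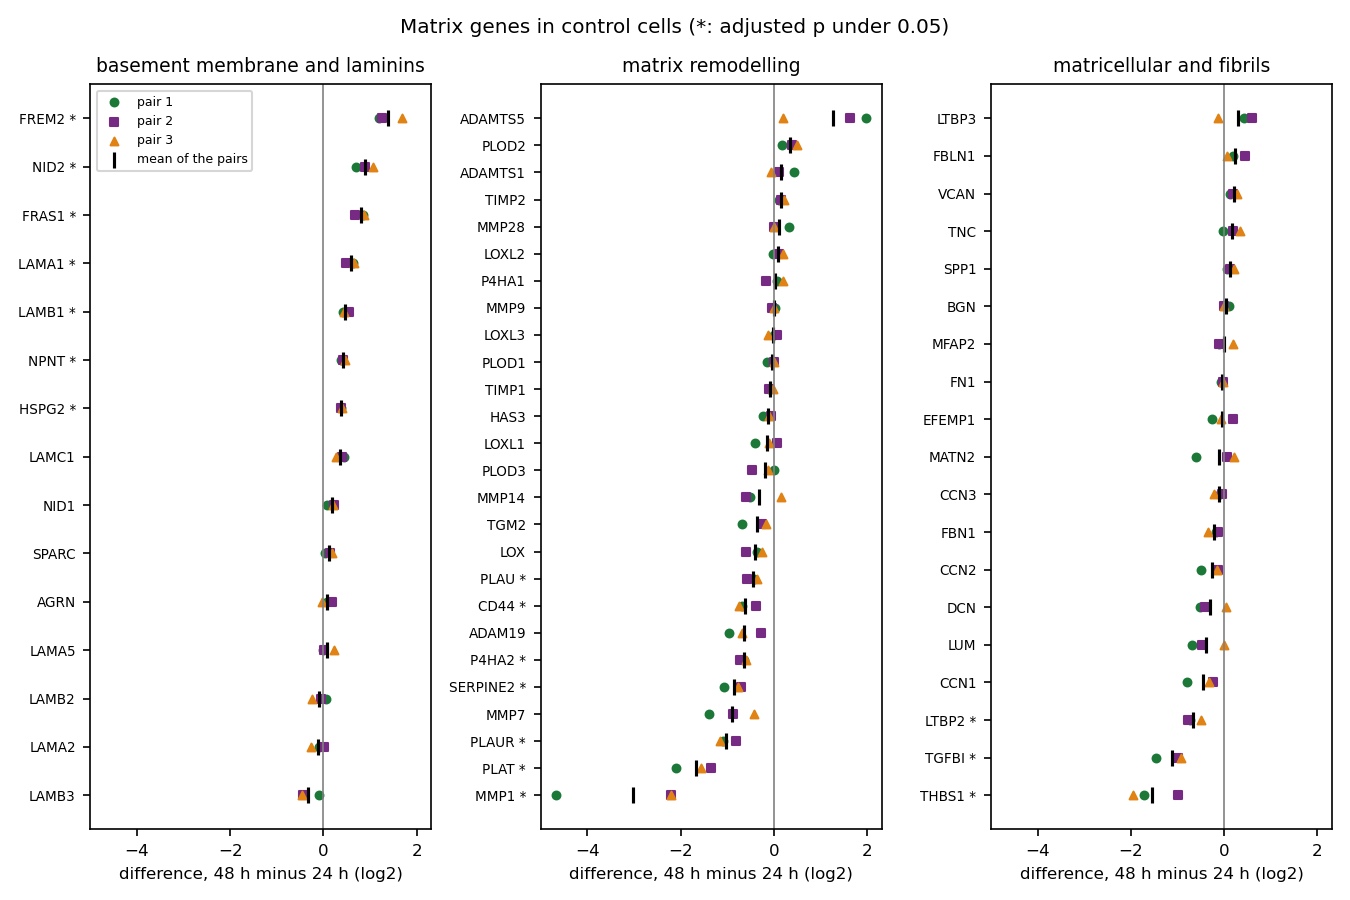
Difference between 48 h and 24 h on the log2 scale (horizontal axis) for the tested genes of 3 matrix lists, with 1 symbol per pair, a bar at their mean and an asterisk at an adjusted p under 0.05. Called genes of the basement membrane lie to the right of 0, from HSPG2 at 0.39 to FREM2 at 1.38, and called genes of the other lists lie to the left, down to MMP1 at -3.02.

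Of 12 integrins the fibronectin receptor chain ITGA5 (-0.58) and the laminin receptor chain ITGA3 (-0.53) fell and ITGB8 rose (0.58, 1 of 3 probe sets). Of 18 genes of the TGF-beta and BMP response 3 fell and 3 rose. INHBA, the subunit of activin A, went from 6.79, 7.47 and 7.58 to 5.27, 4.81 and 5.23, a fall of 2.18 log2 (SE 0.23) called in 2 of 2 probe sets. The feedback inhibitor PMEPA1 fell by 0.88 (3 of 3 probe sets), while the BMP targets ID2 and ID3 rose by 0.38 and 0.50 and the decoy receptor BAMBI by 0.53. Of 22 targets of YAP and TEAD, factors that respond to cell density, none was called in the probe set used, though 1 of 3 probe sets of TGFB2 was, at -0.75 (limma adjusted p = 0.0375). CCN1 differed by -0.46 ± 0.13 (adjusted p = 0.0925 by limma) and CCN2 by -0.25 ± 0.10 (adjusted p = 0.173 by limma), and the list's median was -0.09.

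Signalling and stress. Of 10 EGF ligands and receptors 2 ligands fell, HBEGF by 0.96 ± 0.13 (2 of 2 probe sets) and NRG1 by 0.89 in 1 of its 5 probe sets. Of 26 genes of ERK feedback and the immediate early response 4 fell and 2 rose. FOSL1, an AP-1 subunit, went from 5.71, 4.38 and 6.71 to 3.60, 2.20 and 5.08. Its mean at 24 h was 3.03-fold above the filter level of 4, and its mean at 48 h lay under that level. The arrays of replicates 1 and 2 at 48 h were under that level, so the size of the fall is uncertain. The paired differences were -2.1067, -2.1763 and -1.6281 log2 (limma adjusted p = 0.0246). The AP-1 subunits JUN (2 of 4 probe sets) and FOSL2 fell by 0.46 and 0.45 and the kinase PLK2 by 0.53. The receptor tyrosine kinase inhibitor SPRY1 rose by 1.41 ± 0.22, from 6.37, 6.02 and 4.51 to 7.47, 7.08 and 6.56, and the ERK phosphatase DUSP6 by 0.46.

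Inflammatory genes did not share a direction. Of 22 cytokines and NF-kB genes 2 rose and 2 fell. The monocyte attractant CCL2 rose by 1.18 ± 0.14, from 5.99, 6.95 and 5.54 to 6.78, 8.37 and 6.85, and complement factor B (CFB) by 1.07 in 1 of 2 probe sets. CCL20 fell by 1.33 ± 0.14, from 5.43, 6.63 and 6.08 to 4.47, 5.19 and 4.49, and IL32 by 0.91. Of 25 interferon genes IFI44L rose by 0.81, while OAS3 and ISG15 fell by 0.64 and 0.54.

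Of 22 p53 targets TP53I3 fell by 0.48, and GDF15 differed by 0.79 ± 0.18 without passing limma's threshold (adjusted p = 0.0621). Of 20 NRF2 targets the quinone reductase NQO1 and the glutathione synthesis subunit GCLM fell by 0.54 and 0.48. Of 20 chaperones of the endoplasmic reticulum DNAJB9 and ATF6 rose by 0.67 and 0.40 and SDF2L1 fell by 0.73. None of 11 housekeeping genes was called in the probe set used. For TFRC, 1 of 4 probe sets was called, at -0.51 (limma adjusted p = 0.0346).

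The 10 largest falls also held genes outside the lists. Sarcolipin (SLN), an inhibitor of the calcium pump of the reticulum, went from 8.39, 7.82 and 9.14 to 5.40, 4.17 and 6.93, a difference of -2.95 ± 0.28. The membrane protein TM4SF4 fell by 2.37 ± 0.19, the long noncoding RNA LINC00973 by 2.31 ± 0.12 and the neuropeptide galanin (GAL) by 2.14 ± 0.24. The zinc finger gene ZBED2 fell by 1.66 and DPYSL3, a regulator of the cytoskeleton, by 1.56 (2 of 2 probe sets).

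Time in Nnm cells. Whether the same interval differed in treated cells was tested as the difference of the time effects over all 12 arrays, with the block. Limma called 0 of 22141 probe sets (0.0%), against 2296 at an unadjusted p under 0.05, and the lowest adjusted p was 0.311. Nnm replicate 2 gave other time differences than Nnm replicates 1 and 3 in several lists, and without replicate 2 in either arm 2935 probe sets were called. The values are therefore set side by side for each replicate.

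Mitotic genes were lower at 48 h in both arms, with list medians of -0.60, -0.52 and -0.57 in control cells and -1.24, -0.07 and -0.58 in Nnm cells in replicates 1, 2 and 3. Replication genes had medians of -0.54, -0.41 and -0.28 in control cells and 0.50, -0.26 and 0.62 in Nnm cells. Proximal tubule genes had medians of 0.33, 0.31 and 0.45 in control cells and 0.43, 0.21 and 0.52 in Nnm cells. Basement membrane genes had medians of 0.38, 0.38 and 0.27 in control cells and 0.50, 0.16 and 0.42 in Nnm cells. TXNIP differed by 0.24, -0.18 and 0.30 between the times in Nnm cells, around means of 12.32 at 24 h and 12.44 at 48 h. Its difference between the arms, 3.58 log2, had an adjusted p of 0.470 in limma. MMP1 differed by -2.37, -2.82 and -2.33 in Nnm cells and by -3.02 in the mean of control cells, and the test of that difference was not passed (adjusted p = 0.863 in limma).

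**Figure D5:**
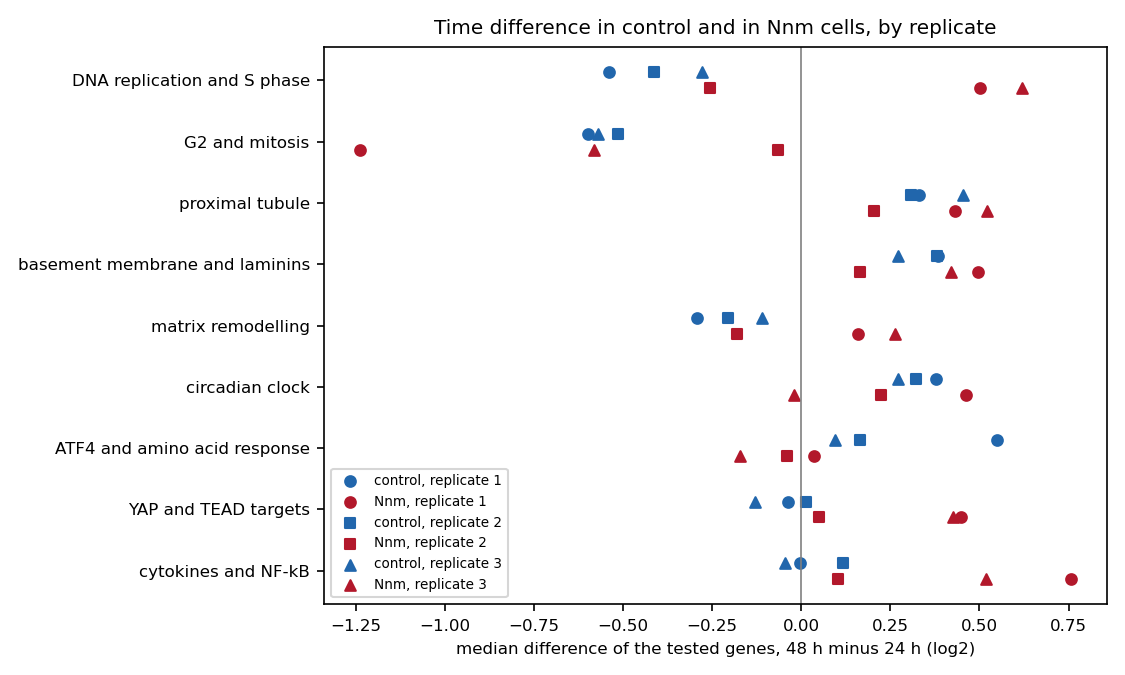
Median difference between 48 h and 24 h on the log2 scale (horizontal axis) over the tested genes of 9 lists, in control cells (blue) and Nnm cells (red), with 1 symbol per replicate. Control replicates lie close together for mitosis, from -0.60 to -0.52, whereas Nnm replicates spread from -1.24 to -0.07, and Nnm replicates 1 and 3 lie above 0 for replication.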

How the data were processed

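The deposited series table held 54675 probe sets of log2 values, made by the authors with GCRMA per the submitters' processing notes (version not given in the sources used here). GCRMA equalises the arrays, so a shift common to nearly all genes cannot be seen. The authors' scanner files were not used here. The number of arrays limits the precision. After 62 manufacturer's controls were left out, probe sets above log2 4 on at least 3 of 6 control arrays were tested. The platform annotation named 1 gene for 19420 of the 22141 tested, several for 940 and none for 1781, and the RefSeq table of GRCh38.p14 changed 0 symbols. A gene was read from the probe set with the highest mean among those naming it alone.

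Limma 3.58.1 in R 4.3.3 (lmFit, eBayes) was fitted with replicate number as a block, and every adjusted p is its Benjamini-Hochberg value. It was tested on simulated data. Same-numbered arrays of the 2 times deviated together from their group means (r = 0.488, 0.592 and 0.587 over probe sets, against -0.413 to -0.143 for different numbers). Deviations from a mean of 3 arrays sum to 0, so positive values for same numbers push the others below 0. Correlations of the levels themselves did not follow the numbers throughout. Replicate 1 at 24 h gave 0.9839 with replicate 1 and 0.9895 with replicate 3 at 48 h. Replicate 2 gave 0.9881 with replicate 2 and 0.9887 with replicate 3, and replicate 3 gave 0.9853 with replicate 3 and 0.9676 with replicate 2. The pairing thus comes from the labels' numbers, and this check does not settle it.

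Named were the 10 largest called rises and falls with a brighter time of at least log2 6, up to 4 called members of each list or the 2 of smallest p where fewer than 2 were called, and 25 genes wherever measured. Other called members complete a list's count and were named after their values were seen. The members and the 43 lists (1029 entries, 746 tested) were chosen with earlier results of these data known. Alternatives left out the block or a replicate, added the Nnm arrays, and changed the filter, scaling and variance model.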

Additional observations from a re-analysis of the deposited data

Results flagged for a closer look

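For 3 of the genes named above or in their lists, every control pair moved one way and every Nnm pair the other. The difference of the time effects, Nnm minus control, was -0.75 log2 for MXI1, -1.10 for ACADS and 1.24 for TGFB2, a growth factor counted here among the targets of YAP. MXI1 and ACADS rose in control cells, and TGFB2 differed there by -0.51 without being called in the probe set used (limma adjusted p = 0.0599), while 1 of its 3 probe sets was called lower. The test of the difference itself did not pass for any of them (limma adjusted p = 0.470 each).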

How the results depend on the processing

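The main count of 2282 called probe sets became 1 with no replicate block, 0 with all 12 arrays and no block (1836 at an unadjusted p under 0.05), 27 with all 12 arrays and the replicate block, and 0 without the filter (7426 unadjusted). It became 4573 with limma's trended and robust variances and 3742 with a filter at log2 6. Without any 1 replicate it was 0 in all 3 cases (0 to 0, 5097 to 5609 unadjusted), with 1 residual degree of freedom. Leaving out a replicate enters fewer samples, and dropping the filter enters more probe sets. For the other settings the cause was not tested. Centring (2639), quantile scaling (2491) and a filter over all 12 arrays (2029) stayed within 1.5 times. Of the 112 named genes that were called, 110 lost the call with all 12 arrays and the block, all but TFCP2L1 and DPYSL3. A difference of at least 0.5 in all pairs, seen in 958 probe sets, was seen in 1374 to 1687 with 1 pair left out, and groups lay at least 0.5 apart without pairing in 197. The test between the arms called 0 to 2935 probe sets with 1 replicate left out, the highest without replicate 2, and 0 under its other alternatives. Signal near background limits genes under log2 4. Where a group's mean lay there (BLNK and FOSL1), the other time's mean is set against that level and the paired differences are given. Single arrays under that level, as for MMP1, ZBED2, TM4SF4, CLSPN and PROM1, enter the means as measured.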
